A study of Mus musculus with 19 samples.

Results

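Fkbp5, Zbtb16, Tsc22d3, Sgk1, Per1, Errfi1, Klf9 and Hsd11b2 are 8 genes known as targets that the progesterone receptor (PR) shares with the glucocorticoid receptor (GR), which bind nearly the same DNA element. They were taken as every array probe whose gene name in the scanner files was one of the 8 symbols, which gave 17 of 56605 probes and 8 of 37061 gene names. The arrays held RNA of CD24+CD29lo luminal cells (LCs), sorted from the mammary glands of 8-week-old C57Bl/6N females after gating on CD45 and CD31. C451A-ERα mice carry a germline mutation at the palmitoylation site of estrogen receptor α (ERα), the lipid anchor of its membrane fraction. All mice of both genotypes were ovariectomized, at 24 days by the sample labels, and received, 10 days later, a slow-release pellet for 21 days. The methods of the study name a slightly later age for the ovariectomy.

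The groups were C451A-ERα mice with E2+Pg (n = 5), wild-type mice with E2+Pg (n = 5), C451A-ERα mice with E2 (n = 5) and wild-type mice with E2 (n = 4), with 1 array for each mouse. Every pellet released 17β-estradiol (E2) at 0.01 mg over 60 days, and the E2+Pg pellet also released progesterone at 1.5 mg over 60 days. The mutation is present in every cell of the mouse, so a difference between genotypes is not limited to effects within LCs, and a probe reads the amount of a transcript and not the mutated base. No group lacked E2, and none received a glucocorticoid. In sorted bulk samples fewer cells of a type and less RNA per cell cannot be told apart.

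PR and GR are ligand-activated transcription factors of one receptor subfamily. After hormone binding they leave a chaperone complex that holds FKBP proteins, and as dimers they occupy the same palindromic element of inverted hexamers. In the mammary epithelium PR is confined to a subset of luminal cells, the hormone-sensing cells, whereas GR is present in most cells. The 8 genes are among the textbook responders: Fkbp5 encodes the co-chaperone FKBP51, which dampens the receptors; Zbtb16, Tsc22d3 and Klf9 encode transcriptional regulators; Per1 belongs to the circadian clock; Sgk1 and Errfi1 act in kinase signaling; and Hsd11b2 encodes the enzyme that inactivates corticosterone.

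The genes lie on 8 chromosomes of the mouse genome (RefSeq, GRCm38.p6). Fkbp5 is at chr17:28398753-28486149, Zbtb16 at chr9:48651797-48836225, Tsc22d3 at chrX:140539528-140600522 and Klf9 at chr19:23141226-23168129. Per1 is at chr11:69095108-69109965, Sgk1 at chr10:21882184-21999903, Errfi1 at chr4:150853796-150868889 and Hsd11b2 at chr8:105518746-105523988.

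Promoter sequences (RefSeq, GRCm38.p6, 250 bases before to 50 bases after a transcript start) were given for 6 of the 8 genes, with 15 windows in all, and none was given for Zbtb16 or Hsd11b2. The windows were searched on both strands for the palindromic steroid receptor element (GNACA and TGTNC, 3 bases apart, N being any base), for the single hexamer AGAACA and for the E-box CACGTG, the element of the clock transcription factors. Of the windows with a match, 1 each of Sgk1, Tsc22d3, Fkbp5 and Per1 is shown, with the matches in capitals. The other Sgk1 windows with a hexamer are not shown. The printed windows run 5′ to 3′ on the strand of the gene, and are chr10:21993640-21993939 (plus) for Sgk1, chrX:140600473-140600772 (minus) for Tsc22d3, chr17:28486100-28486399 (minus) for Fkbp5 and chr11:69098699-69098998 (plus) for Per1.
Sgk1: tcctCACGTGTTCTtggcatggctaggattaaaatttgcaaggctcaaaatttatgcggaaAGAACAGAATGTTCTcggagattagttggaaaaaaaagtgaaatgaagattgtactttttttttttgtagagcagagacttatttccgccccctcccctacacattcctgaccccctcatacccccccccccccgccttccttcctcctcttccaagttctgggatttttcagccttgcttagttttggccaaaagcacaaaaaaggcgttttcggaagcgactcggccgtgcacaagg
Tsc22d3: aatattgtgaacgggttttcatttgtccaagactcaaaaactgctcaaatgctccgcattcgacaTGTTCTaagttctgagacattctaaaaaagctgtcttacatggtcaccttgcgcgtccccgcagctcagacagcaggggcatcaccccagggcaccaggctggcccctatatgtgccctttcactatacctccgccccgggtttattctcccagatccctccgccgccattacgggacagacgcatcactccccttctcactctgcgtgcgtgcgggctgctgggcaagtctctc
Fkbp5: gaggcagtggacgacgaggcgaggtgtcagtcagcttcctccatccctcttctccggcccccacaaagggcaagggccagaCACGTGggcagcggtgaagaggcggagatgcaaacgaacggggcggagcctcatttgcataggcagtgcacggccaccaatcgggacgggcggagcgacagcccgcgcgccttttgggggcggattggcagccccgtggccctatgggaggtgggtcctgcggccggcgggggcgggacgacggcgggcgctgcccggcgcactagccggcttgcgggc
Per1: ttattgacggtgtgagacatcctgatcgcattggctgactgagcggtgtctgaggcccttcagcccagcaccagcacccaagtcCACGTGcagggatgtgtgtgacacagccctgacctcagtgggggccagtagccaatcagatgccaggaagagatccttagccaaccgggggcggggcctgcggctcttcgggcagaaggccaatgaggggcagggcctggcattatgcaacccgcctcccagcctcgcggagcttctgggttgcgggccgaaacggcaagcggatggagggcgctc
The palindromic element was found in 1 of the 15 windows, that of Sgk1, 188 bases upstream of the start, and in 0.475% of all 32851 promoter windows. It overlaps 2 AGAACA hexamers, 189 and 180 bases upstream, and a further hexamer at 242 bases overlaps the E-box at 246 bases. The hexamer was found in 4 of the 15 windows, 3 of Sgk1 and 1 of Tsc22d3 (185 bases upstream), and in 19% of all windows. The E-box was found in 3 windows, those of Sgk1, Fkbp5 (169 bases upstream) and Per1 (166 bases upstream), and in 7.15% of all windows. A match is a stretch of letters, and no binding was measured.

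The probes are 60 bases long, and the scanner files place them on mm9. The 2 shown here belong to the gene with the clearest progesterone response and to the gene without signal. They are a probe of Fkbp5 at chr17:28574995-28575054 (minus) and the probe of Hsd11b2, whose 60 bases span chr8:108046785-108047002 (plus).
Fkbp5 probe: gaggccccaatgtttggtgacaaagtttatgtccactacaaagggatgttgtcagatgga
Hsd11b2 probe: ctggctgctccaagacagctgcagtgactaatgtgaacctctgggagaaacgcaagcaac
Each gene's values are those of its brightest probe, as the median signal on the log2 scale after quantile normalization over the 19 arrays. Of the 8 genes, 7 had a probe well above background on at least 4 arrays, the minimum for a test, and of the 17 probes 5 were above background on fewer. The annotation used here is of another build than the probe positions, so the exon of a probe was not assigned.

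The 6 pan-luminal markers tested, keratins Krt8, Krt18 and Krt19 among them, were all above background on enough arrays, as were the 9 basal and myoepithelial and 8 hormone-sensing markers. The 6 fibroblast, 5 endothelial and 6 immune markers passed as well, so this filter does not show how pure the sorted cells were. Over all arrays between 26479 and 31266 probes were well above background, and no spot was saturated. When limma weighted the arrays by their fit, 3 arrays had weights between 0.248 and 0.309, while those of the other 16 were between 0.504 and 3.06. These were L18 among C451A-ERα mice with E2+Pg and L4 and L27 among C451A-ERα mice with E2. Values of the 7 genes that these arrays moved most are given also without them, a choice made after the data were seen. The weights come from the deviations of these same values from their group means. A call gained without the 3 arrays is therefore no independent result. No wild-type array was among the 3.

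Adding progesterone raised Fkbp5, and no other of the 7 tested genes was called, which took an adjusted p by limma below 0.05 together with a fold change of more than 1.5. In C451A-ERα LCs the log2 signal of Fkbp5 was 9.31, 9.62, 9.94, 10.26 and 10.37 with E2+Pg, against 8.57, 8.98, 9.04, 9.10 and 9.27 with E2. The lowest mouse with E2+Pg, L56, lay just above the highest with E2, L58, so the groups did not overlap. Fkbp5 averaged 9.90 ± 0.44 with E2+Pg and 8.99 ± 0.26 with E2 (SD, n = 5 each). The log2 fold change was 0.91 (SE 0.19, 95% interval 0.51 to 1.30, a fold change of 1.88), with an adjusted p of 0.0142 by limma, and an exact permutation test gave a two-sided p of 0.00794, the smallest that 5 against 5 mice allow.

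In wild-type LCs the log2 signal of Fkbp5 was 9.34, 9.70, 9.73, 9.86 and 9.91 with E2+Pg, against 8.68, 8.81, 9.04 and 9.16 with E2. These groups did not overlap either. Fkbp5 averaged 9.71 ± 0.22 with E2+Pg (SD, n = 5) and 8.92 ± 0.22 with E2 (SD, n = 4). The log2 fold change of 0.79 (SE 0.20, interval 0.37 to 1.21, a fold change of 1.73) missed the threshold, with an adjusted p of 0.0551 by limma. The two-sided exact permutation p was 0.0159. Averaged over genotypes, Fkbp5 rose by 0.85 on the log2 scale (SE 0.14, a fold change of 1.80, adjusted p by limma 0.00109).

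The progesterone response of Fkbp5 was not found to depend on genotype. Its interaction was 0.12 on the log2 scale (SE 0.27, interval -0.46 to 0.70, adjusted p by limma 0.844), an interval that reaches a difference of 0.70. C451A-ERα LCs and wild-type LCs differed by 0.19 under E2+Pg (adjusted p 0.575) and by 0.07 under E2 (adjusted p 0.914) in the same fit. On every slide that held both treatments of a genotype the E2+Pg mouse was the higher, by 0.21 to 1.33 on 5 slides in C451A-ERα and by 0.18 to 1.11 on 4 slides in wild-type.

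**Figure D1:**
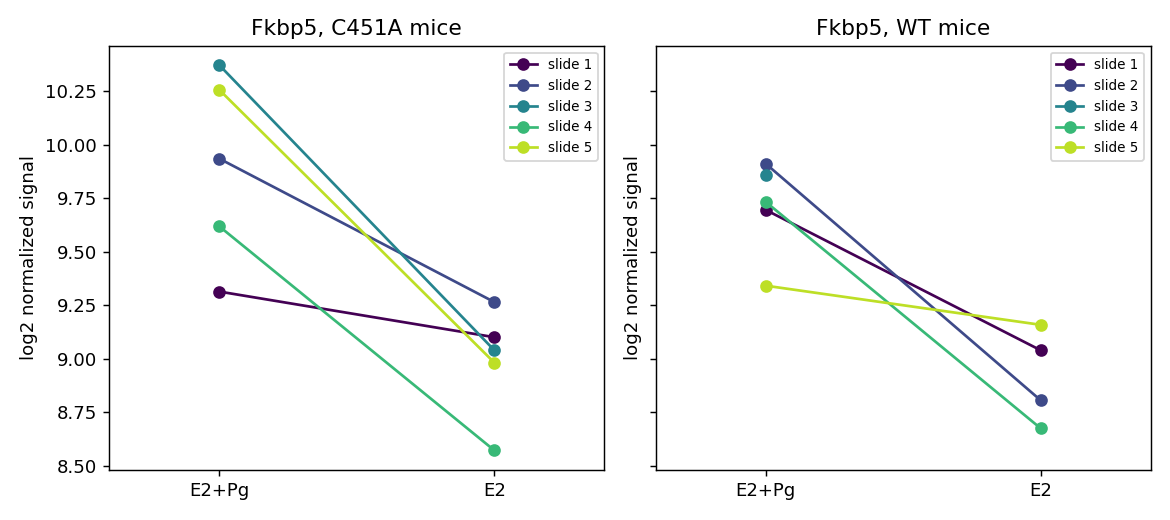
Log2 normalized signal of Fkbp5 in each mouse, with the E2+Pg and E2 mice of the same array slide joined by a line, in C451A-ERα mice (left) and wild-type mice (right). Every line that joins 2 mice falls toward E2, and the wild-type E2+Pg mouse on the slide with no wild-type E2 mouse is a single point.

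The call in C451A-ERα depended on single mice and on the samples fitted together. It was lost without L61 (0.79, adjusted p by limma 0.0511) and without L4, L18 and L27 (0.95, adjusted p 0.0994 with 4 against 3 mice), whereas wild-type passed without L21 (0.88, adjusted p 0.0441) and in the fit without the 3 arrays (0.79, adjusted p 0.0451). The probe of Fkbp5 printed above had changes of 0.73 in C451A-ERα (SE 0.22, adjusted p over all probes 0.0831 by limma), 0.49 in wild-type (SE 0.23, adjusted p 0.315) and 0.61 averaged over genotypes (adjusted p 0.0258). The third Fkbp5 probe was well above background on 1 array.

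Among all 20692 genes tested, 1.01% were called higher and 1.45% lower with E2+Pg in C451A-ERα LCs, and 0.604% were called higher and 0.754% lower in wild-type LCs. Averaged over genotypes these shares were 1.64% higher and 2.19% lower. Of the 7 shared target genes 1 was called, higher, in C451A-ERα and averaged over genotypes. None was called in wild-type by limma, where 2 (Fkbp5 and Klf9) had an unadjusted p under 0.05, as did 3388 of all genes. Groups that did not overlap, with E2+Pg the higher, were found for 2.5% of all genes in C451A-ERα and 5.81% in wild-type, and for Fkbp5 alone among the 7 genes. The median log2 fold change of the 7 genes was 0.24 in C451A-ERα and 0.13 in wild-type, and that of all genes was 0.002 in C451A-ERα and 0.038 in wild-type.

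**Figure D2:**
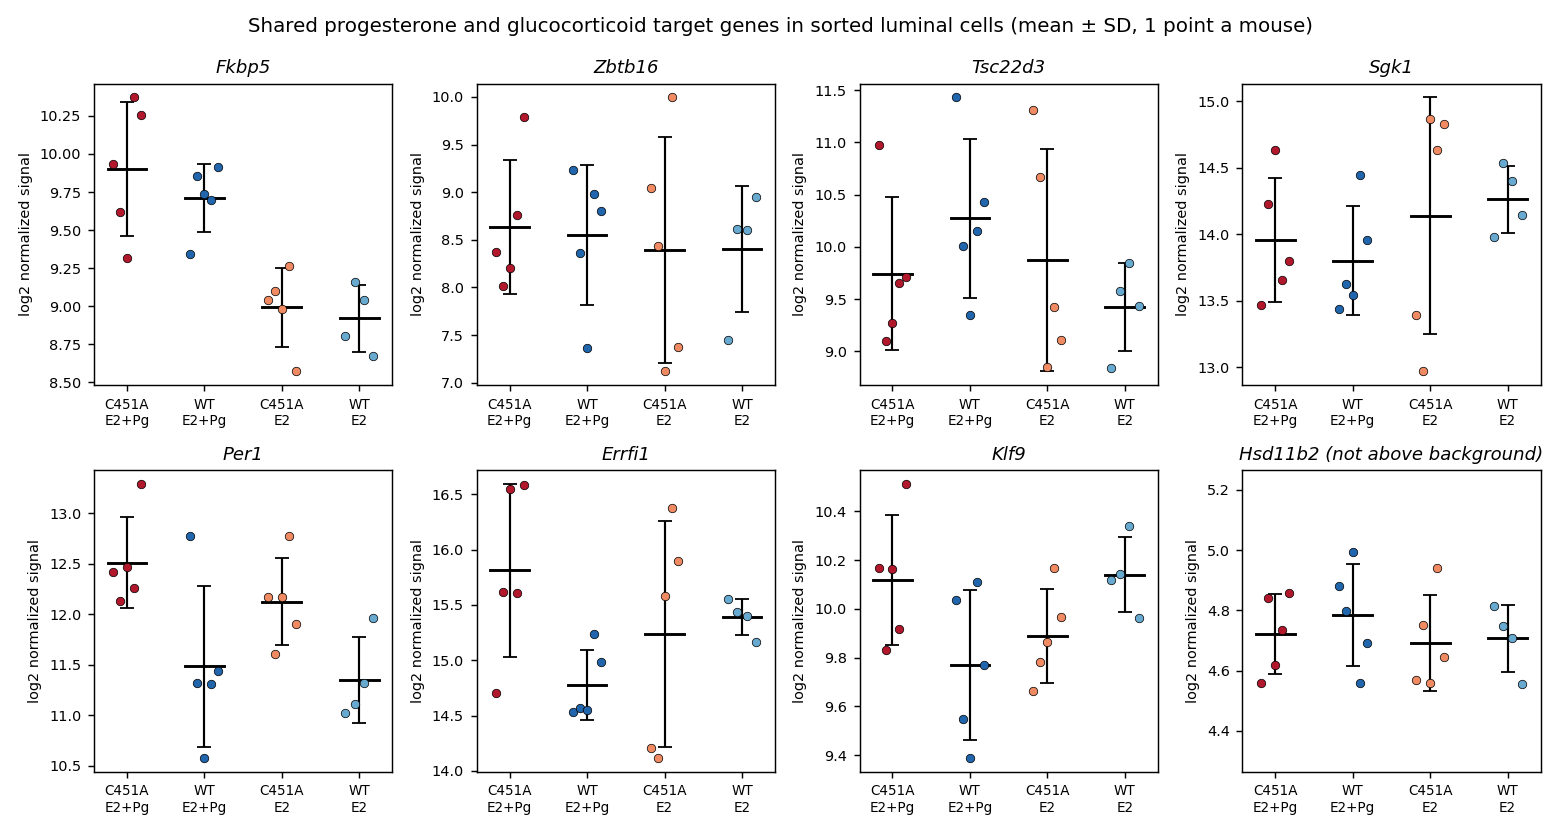
Log2 normalized signal of the 8 genes, with 1 point for each mouse, lines at the mean and bars of 1 SD, in C451A-ERα with E2+Pg, wild-type with E2+Pg, C451A-ERα with E2 and wild-type with E2. Fkbp5 is higher in both E2+Pg groups, Zbtb16 and Tsc22d3 spread widely within groups, and Hsd11b2 stays between 4.55 and 4.99 in all 19 mice.

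Hsd11b2 was not detected. Its enzyme converts corticosterone into an inactive form and so protects the mineralocorticoid receptor in kidney. On all 19 arrays its only probe stayed too close to the background to count as signal, with log2 values of 4.55 to 4.99 and group means of 4.72 (C451A-ERα with E2+Pg), 4.79 (wild-type with E2+Pg), 4.69 (C451A-ERα with E2) and 4.71 (wild-type with E2). No fold change is given for it. It entered no test, and the median of the 7 genes does not include it.

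Zbtb16, which encodes the zinc-finger repressor PLZF, was among the most variable of the genes tested. In C451A-ERα LCs its log2 signal was 8.02, 8.20, 8.38, 8.76 and 9.79 with E2+Pg, against 7.12, 7.37, 8.44, 9.04 and 10.00 with E2. In wild-type LCs it was 7.36, 8.36, 8.80, 8.98 and 9.23 with E2+Pg, against 7.44, 8.61, 8.61 and 8.95 with E2. The 4 groups overlapped almost completely, and the lowest and the highest of all 19 mice were both C451A-ERα mice with E2. The change with E2+Pg was 0.24 in C451A-ERα (SE 0.50, interval -0.82 to 1.30, adjusted p by limma 0.847) and 0.14 in wild-type (SE 0.53, interval -0.98 to 1.27, adjusted p 0.910). Differences between C451A-ERα and wild-type were 0.08 under E2+Pg and -0.01 under E2. Without the 3 arrays of lowest weight the change in C451A-ERα was 0.53 (adjusted p by limma 0.749). The sign turned in C451A-ERα without L51 (-0.08), L63 (-0.05) or L76 (-0.02), and in wild-type without L50 (-0.17) or L21 (-0.03).

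Tsc22d3 encodes GILZ, an anti-inflammatory leucine zipper protein that glucocorticoids induce. In C451A-ERα LCs its log2 signal was 9.10, 9.27, 9.65, 9.72 and 10.98 with E2+Pg, against 8.85, 9.11, 9.43, 10.66 and 11.31 with E2. In wild-type LCs it was 9.35, 10.01, 10.15, 10.43 and 11.43 with E2+Pg, against 8.84, 9.43, 9.58 and 9.84 with E2. The wild-type values with E2+Pg lay mostly above those with E2, whereas in C451A-ERα the highest values were those of L18 with E2+Pg and of L27 and L4 with E2, the 3 arrays of lowest weight. The change with E2+Pg was -0.13 in C451A-ERα (SE 0.47, adjusted p by limma 0.916) and 0.85 in wild-type (SE 0.49, interval -0.19 to 1.89, adjusted p 0.396, two-sided exact permutation p 0.0714). Without the 3 arrays the change in C451A-ERα was 0.31 (adjusted p by limma 0.744).

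The interaction of Tsc22d3 was -0.98 (SE 0.68, interval -2.41 to 0.45, adjusted p by limma 0.496) with all arrays and -0.54 (adjusted p 0.666) without the 3. C451A-ERα LCs lay below wild-type LCs by 0.53 under E2+Pg (adjusted p 0.527) and by 0.84 without the 3 arrays (adjusted p 0.0710). Neither passed the threshold. A second probe of Tsc22d3 gave -0.09 for E2+Pg in C451A-ERα and 0.54 in wild-type.

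Klf9 encodes a Krüppel-like repressor that GR, PR and the thyroid hormone receptor induce, and it varied least among mice of a group. In C451A-ERα LCs its log2 signal was 9.83, 9.92, 10.16, 10.17 and 10.51 with E2+Pg, against 9.66, 9.78, 9.87, 9.96 and 10.17 with E2. In wild-type LCs it was 9.39, 9.55, 9.77, 10.04 and 10.11 with E2+Pg, against 9.96, 10.12, 10.14 and 10.34 with E2. The E2+Pg mice thus lay toward the upper end in C451A-ERα and toward the lower end in wild-type, with overlap in both. The change with E2+Pg was 0.23 in C451A-ERα (SE 0.16, interval -0.10 to 0.56, adjusted p by limma 0.459) and -0.37 in wild-type (SE 0.17, interval -0.72 to -0.02, adjusted p 0.277). Without the 3 arrays of lowest weight that in C451A-ERα was 0.11 (adjusted p by limma 0.843).

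Klf9 was the only gene of the 7 whose interaction had an unadjusted p under 0.05. The interaction was 0.60 (SE 0.23, interval 0.12 to 1.08), with an adjusted p of 0.474 by limma, so it was not called. No gene of the 20692 was called for the interaction (0%), with 1949 at an unadjusted p under 0.05. A second Klf9 probe gave 0.55 for the interaction, and without the 3 arrays of lowest weight the first gave 0.48 (adjusted p by limma 0.504). Under E2+Pg the C451A-ERα mouse was the higher on all 5 slides, with a difference of 0.35 in the means (SE 0.16, adjusted p 0.255).

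Per1, a repressor of the circadian clock that steroid receptors also induce directly, had the widest difference between genotypes of the 7 genes under E2 and nearly the widest under E2+Pg. Under E2+Pg its log2 signal was 12.13, 12.26, 12.41, 12.46 and 13.29 in C451A-ERα LCs, against 10.58, 11.31, 11.32, 11.44 and 12.77 in wild-type LCs. Under E2 it was 11.61, 11.90, 12.17, 12.17 and 12.77 in C451A-ERα LCs, against 11.02, 11.11, 11.32 and 11.96 in wild-type LCs. Under E2+Pg a single wild-type mouse, L21, lay within the range of C451A-ERα, above 4 of its 5 mice. Per1 averaged 12.51 ± 0.45 in C451A-ERα and 11.48 ± 0.80 in wild-type under E2+Pg (SD, n = 5 each), and 12.12 ± 0.43 in C451A-ERα (n = 5) and 11.35 ± 0.43 in wild-type (n = 4) under E2.

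The difference in Per1 was 1.03 under E2+Pg (SE 0.33, interval 0.34 to 1.72, a fold change of 2.04) and 0.77 under E2 (SE 0.35, interval 0.04 to 1.51, a fold change of 1.71). Neither passed the test across all genes, with adjusted p-values by limma of 0.169 and 0.337. The two-sided exact permutation p was 0.0397 under E2+Pg and 0.0397 under E2, unadjusted. The C451A-ERα mouse was the higher on all 5 slides under E2+Pg, by 0.51 to 1.56, and on 3 of 4 slides under E2. Without L21 the difference under E2+Pg was 1.35 and was called (adjusted p by limma 0.0258, in a fit that called 227 of all genes), and without L63 it was 0.83 (adjusted p 0.373). Without the 3 arrays of lowest weight it was 1.05 (adjusted p 0.0501). The difference in Per1 between E2+Pg and E2 was 0.39 in C451A-ERα (adjusted p 0.576, and 0.25 without the 3 arrays) and 0.13 in wild-type (adjusted p 0.874).

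Errfi1 encodes MIG6, a feedback inhibitor of the EGF receptor family that progesterone induces in the uterus. Under E2+Pg its log2 signal was 14.71, 15.61, 15.62, 16.54 and 16.59 in C451A-ERα LCs, against 14.53, 14.55, 14.57, 14.98 and 15.24 in wild-type LCs. Under E2 it was 14.12, 14.20, 15.58, 15.90 and 16.38 in C451A-ERα LCs, against 15.17, 15.40, 15.43 and 15.55 in wild-type LCs. Under E2+Pg 4 of the 5 C451A-ERα mice lay above every wild-type mouse, and the fifth was L18. Under E2 the C451A-ERα mice split into L4 and L27 below the wild-type range and 3 mice above it.

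The difference between C451A-ERα and wild-type under E2+Pg was 1.04 (SE 0.40, interval 0.19 to 1.89, a fold change of 2.05, adjusted p by limma 0.216, two-sided exact permutation p 0.0238). Without L4, L18 and L27 it was 1.31 and was called (adjusted p by limma 0.00364), in a fit that called 3002 of all genes for this comparison, against 1 with all arrays. These 3 arrays were picked by their misfit to the same values that this fit tests. Under E2 the difference was -0.15 (adjusted p 0.915) with all arrays and 0.56 (adjusted p 0.255) without the 3, so that its sign turned. A second Errfi1 probe differed by 1.95 under E2+Pg (SE 0.52, adjusted p over all probes 0.121 by limma). The difference in Errfi1 between E2+Pg and E2 was 0.58 in C451A-ERα (SE 0.40, adjusted p 0.475), 0.14 there without the 3 arrays (adjusted p 0.862), and -0.61 in wild-type (SE 0.43, adjusted p 0.478). The interaction was 1.19 (SE 0.59, interval -0.05 to 2.43, adjusted p by limma 0.474), and 0.75 (adjusted p 0.494) without the 3 arrays.

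Sgk1 encodes the serum- and glucocorticoid-regulated kinase, which in kidney raises sodium uptake by sparing the epithelial sodium channel from degradation. In C451A-ERα LCs its log2 signal was 13.47, 13.66, 13.80, 14.23 and 14.63 with E2+Pg, against 12.97, 13.39, 14.64, 14.83 and 14.87 with E2. In wild-type LCs it was 13.44, 13.55, 13.63, 13.95 and 14.45 with E2+Pg, against 13.98, 14.14, 14.40 and 14.54 with E2. The lowest C451A-ERα mice were again L4 and L27 with E2 and L18 with E2+Pg. The change with E2+Pg was -0.18 in C451A-ERα (SE 0.34, adjusted p by limma 0.824) and -0.46 in wild-type (SE 0.36, interval -1.22 to 0.29, adjusted p 0.523). Without the 3 arrays the change in C451A-ERα was -0.70 (adjusted p by limma 0.216). Averaged over genotypes it was -0.32 (adjusted p by limma 0.516), and without the 3 arrays -0.58 (adjusted p 0.0455), which did not reach the fold threshold. In both genotypes the mean with E2+Pg lay below that with E2, and neither difference was called. The palindromic element lies in 1 of the 6 promoter windows of Sgk1, and its part in these values was not tested.

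**Figure D3:**
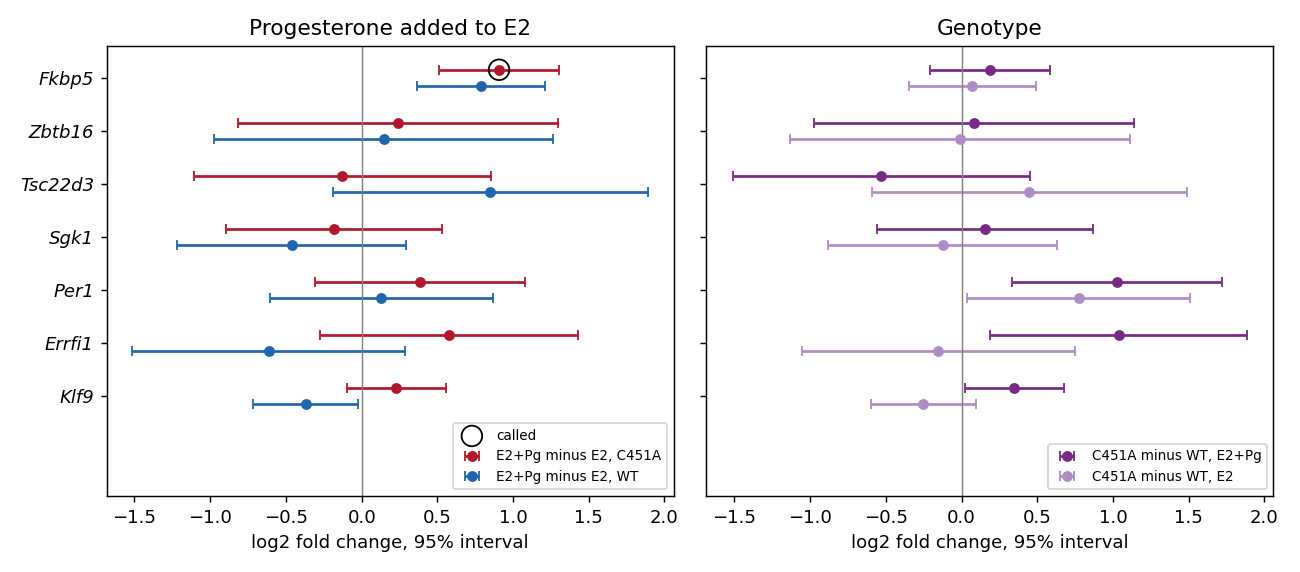
Log2 fold changes of the 7 tested genes with their 95% intervals, for E2+Pg against E2 in C451A-ERα and in wild-type (left) and for C451A-ERα against wild-type under E2+Pg and under E2 (right), with a ring around a called value. The Fkbp5 intervals exclude 0 in both genotypes, and those of Per1 exclude 0 in both genotype comparisons, uncalled.

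In the comparisons of genotype none of the 7 genes was called by limma, against 0.00483% of all genes under E2+Pg and 0.029% under E2. An unadjusted p under 0.05 was found for 3 genes (Per1, Errfi1 and Klf9) under E2+Pg, as for 3796 of all genes, and for 1 (Per1) under E2, as for 2832 of all genes. Under E2+Pg 6 of the 7 genes were the higher in C451A-ERα, with a median of 0.19, and the median of all genes was -0.024. Both Errfi1 and Per1 are also genes that cell stress raises within minutes. Of 22 immediate early and dissociation genes none was called in this comparison, while 21 had a positive value and 12 an unadjusted p under 0.05, with a median of 0.506 against -0.024 for all genes. Their mean log2 signal was 12.88 to 13.53 in C451A-ERα and 12.11 to 13.23 in wild-type under E2+Pg, and 12.73 to 13.55 in C451A-ERα and 13.08 to 13.25 in wild-type under E2. For these 22 genes the median difference between genotypes under E2 was 0.034, with 11 positive values. Their median change with E2+Pg was 0.046 in C451A-ERα, with 15 positive values, and -0.547 in wild-type, with 3. Averaged over genotypes 1 of them, the stress factor Atf3, was called lower with E2+Pg (-0.60, adjusted p by limma 0.0474). That call held under 4 of 10 alternative settings and in 4 of the 19 fits without single mice. Their part in the values of Errfi1 and Per1 was not tested.

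Of the receptor genes only Pgr, which encodes PR, was called within a genotype. It fell with E2+Pg in C451A-ERα LCs (-0.99, SE 0.25, adjusted p by limma 0.0373), with means of 9.87 with E2+Pg and 10.86 with E2. In wild-type LCs the means were 10.51 with E2+Pg and 11.22 with E2, a difference of -0.72 that was not called (adjusted p 0.174), and averaged over genotypes Pgr fell by 0.85 (adjusted p by limma 0.00655). The averaged call held without each of the 19 mice and under all 10 alternative settings, and that in C451A-ERα without 4 of 10 mice and under 4 of 11 settings. Nr3c1, which encodes GR, averaged 11.16 and 10.92 with E2+Pg in C451A-ERα and wild-type, against 10.72 and 10.65 with E2. Its averaged change of 0.35 had an adjusted p of 0.0269 by limma and stayed under the fold threshold. Nr3c2, the mineralocorticoid receptor, averaged 9.13 in C451A-ERα and 8.01 in wild-type under E2+Pg, and 9.74 in C451A-ERα and 8.41 in wild-type under E2, with differences that were not called (1.12, adjusted p by limma 0.179, and 1.33, adjusted p 0.145).

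The fall of Pgr stood among other hormone-sensing markers. Of 8 such markers 7 were called lower with E2+Pg averaged over genotypes, 4 of them also in C451A-ERα and none in wild-type. Beside Pgr, Esr1, Areg and Cited1 they were Foxa1 (-0.95), a pioneer factor of ERα, and Ly6a (-1.46) and Prom1 (-0.89), the surface markers Sca1 and CD133 (adjusted p by limma 0.00283, 0.00625 and 0.00249). Their summed signal, on the log2 scale, was 14.70 to 16.48 with E2+Pg and 16.62 to 17.34 with E2 in C451A-ERα, and 15.03 to 15.95 with E2+Pg and 16.04 to 17.19 with E2 in wild-type. These sums did not overlap in either genotype and were lower in the groups in which Fkbp5 was higher, and their part in the values of Fkbp5 was not tested. Of 14 genes of receptors and their chaperones Pgr and Esr1 (-0.99 averaged, adjusted p by limma 0.0148) were called, and Fkbp4, the chaperone FKBP52 that acts against FKBP51, was not.

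Some genes under PR in the mammary gland changed far more than Fkbp5. Rspo1, an R-spondin that feeds Wnt signaling, rose by 3.25 in C451A-ERα (SE 0.76, adjusted p by limma 0.0266) and by 4.97 in wild-type (SE 0.80, adjusted p 0.00637). Calca, the calcitonin gene, rose by 3.80 in C451A-ERα (SE 0.95, adjusted p by limma 0.0381) and by 6.24 in wild-type (SE 1.01, adjusted p 0.00637). No wild-type array with E2 showed Calca above background, so the size of that rise is uncertain, and other fits gave 3.74 to 8.76. Tnfsf11, which encodes the PR-induced paracrine factor RANKL, was called averaged over genotypes (adjusted p by limma 0.0462), a call that held under 3 of 9 alternative settings. In wild-type Tnfsf11 rose by 1.80 (SE 0.54) and was not called (adjusted p by limma 0.0978). It was above background in 2 of 5 C451A-ERα mice with E2+Pg and 1 of 5 with E2, and in 4 of 5 wild-type mice with E2+Pg and none of 4 with E2. Of the 12 genes of this list 3 were called higher and 2 lower averaged over genotypes. The lower ones were Areg (-1.28, adjusted p by limma 0.00702), the EGF receptor ligand amphiregulin, and Cited1 (-1.45, adjusted p 0.0111), both also hormone-sensing markers.

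The other glucocorticoid targets that changed with E2+Pg fell. Of 29 tested, none was called higher in any comparison with E2+Pg, and 2 were called lower in each genotype and 6 averaged over genotypes. Glul, glutamine synthetase, fell by 0.98 in C451A-ERα (adjusted p by limma 0.00729) and by 0.96 in wild-type (adjusted p 0.0187). Its means were 13.03 with E2+Pg and 14.01 with E2 in C451A-ERα, and 13.77 with E2+Pg and 14.73 with E2 in wild-type. Mt2, a metallothionein, fell by 1.27 in wild-type (adjusted p by limma 0.0312) and, uncalled, by 0.55 in C451A-ERα (adjusted p 0.277). Mfsd2a, a lipid transporter, fell by 1.11 in C451A-ERα (adjusted p by limma 0.0298) and, uncalled, by 0.91 in wild-type (adjusted p 0.107). Mt1, Crispld2 and Gadd45g fell by 0.65, 0.86 and 0.65 averaged over genotypes (adjusted p by limma 0.0350, 0.0220 and 0.0336). The averaged calls of Glul, Mt2, Mfsd2a and Crispld2 held without each mouse and under all 10 alternative settings, whereas those of Mt1 and Gadd45g held under 5 and 6 of the 10. The median of the list was -0.025 in C451A-ERα and -0.54 in wild-type, against 0.002 and 0.038 for all genes in these genotypes. At an unadjusted p under 0.05 were 7 of its genes in C451A-ERα, against 3815 of all 20692 genes, and 11 in wild-type, against 3388 of all. The 22 immediate early and dissociation genes, which share Dusp1 and Zfp36 with this list, had medians of 0.046 in C451A-ERα and -0.547 in wild-type.

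**Figure D4:**
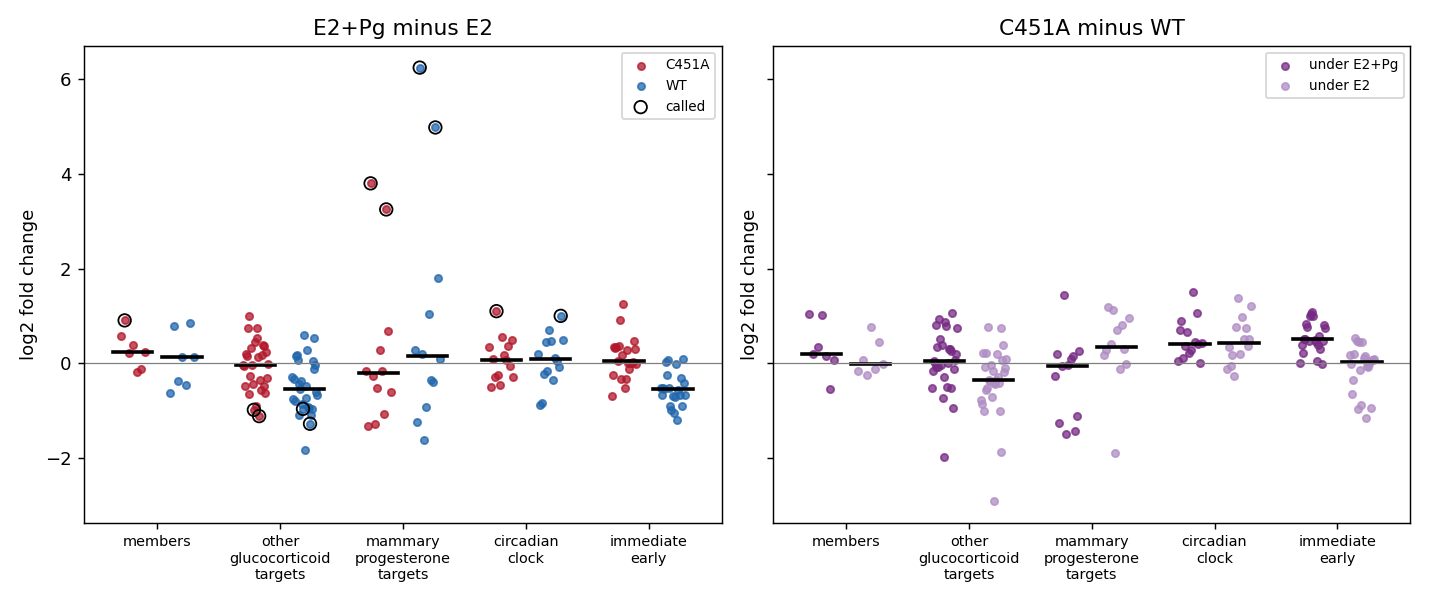
Log2 fold changes of the 7 tested genes (members) and of 4 lists, with 1 point for each gene, a bar at the median and a ring around called genes, for E2+Pg against E2 in C451A-ERα and wild-type (left) and for C451A-ERα against wild-type under E2+Pg and under E2 (right). Rspo1 and Calca stand far above Fkbp5, called glucocorticoid targets lie below 0, and no gene of these lists is ringed on the right.

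In the clock around Per1, Cry1, a partner of the PER proteins, rose by 1.102 with E2+Pg in C451A-ERα (adjusted p by limma 0.0125). Averaged over genotypes, Cry1 was called higher (0.78, adjusted p by limma 0.00615) and Bhlhe40, a repressor of the clock, lower (-0.69, adjusted p 0.0250). Between genotypes none of 14 clock genes was called, and all 14 were the higher in C451A-ERα under E2+Pg, with a median of 0.418, and 11 of 14 under E2, with a median of 0.441. At an unadjusted p under 0.05 there were 5 clock genes under each treatment. The hour at which the mice were killed is not given in the sources used here.

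Of 5 enzymes that supply or remove steroids H6pd, which feeds cofactor to the enzyme that regenerates corticosterone, was called lower averaged over genotypes (-0.74, adjusted p by limma 0.0125). None of 16 relatives of the 8 genes and none of 8 targets of the SGK1 kinase was called in any comparison by limma. Averaged over genotypes 6 of the 16 and 2 of the 8 had an unadjusted p under 0.05, as had 4358 of all 20692 genes.

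The spread within groups separated the 7 genes. The SD of Zbtb16 within groups was 0.86 on the log2 scale, above that of 96.3% of all genes, and those of Tsc22d3 (0.796), Errfi1 (0.688), Sgk1 (0.573) and Per1 (0.557) were above those of 95.2%, 92.1%, 86.7% and 85.7%. Fkbp5 (0.304) lay close to the median of all genes (0.301), and Klf9 (0.243) below it. The 5 genes with wide spreads had the widest intervals in the comparisons above, as must follow, because the intervals are computed from these spreads.

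The 7 genes did not vary together as 1 group. Over the deviations of the 19 mice from their group means, 15 of 21 pairs had a positive Pearson r, and 2 pairs passed a permutation test (100000 permutations within groups, two-sided, adjusted over the 21 pairs). Sgk1 and Errfi1 had r = 0.808 (permutation p 0.00355, adjusted p 0.0373) and Spearman's rho = 0.811 (adjusted p 0.0449), and r = 0.773 without the 2 mice farthest from the median of Sgk1. Without L4, L18 and L27 the r of this pair was 0.410, so that much of it rests on these 3 mice. Zbtb16 and Per1 had r = 0.674 (permutation p 0.00197, adjusted p 0.0373) and rho = 0.661 (adjusted p 0.0642), with r = 0.716 without the 2 farthest mice and 0.734 without the 3 arrays. Tsc22d3 ran against Errfi1 (r = -0.662, permutation adjusted p 0.0836) with all arrays and not without the 3 (r = 0.095). A slide held 3 or 4 mice, too few for an r within 1 slide. After slide means were fitted with the group means, a step added after the data were seen that left 11 residual degrees of freedom, r was 0.797 for Sgk1 and Errfi1, 0.723 for Zbtb16 and Per1 and -0.732 for Tsc22d3 and Errfi1. The permutations did not keep mice of a slide together.

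**Figure D5:**
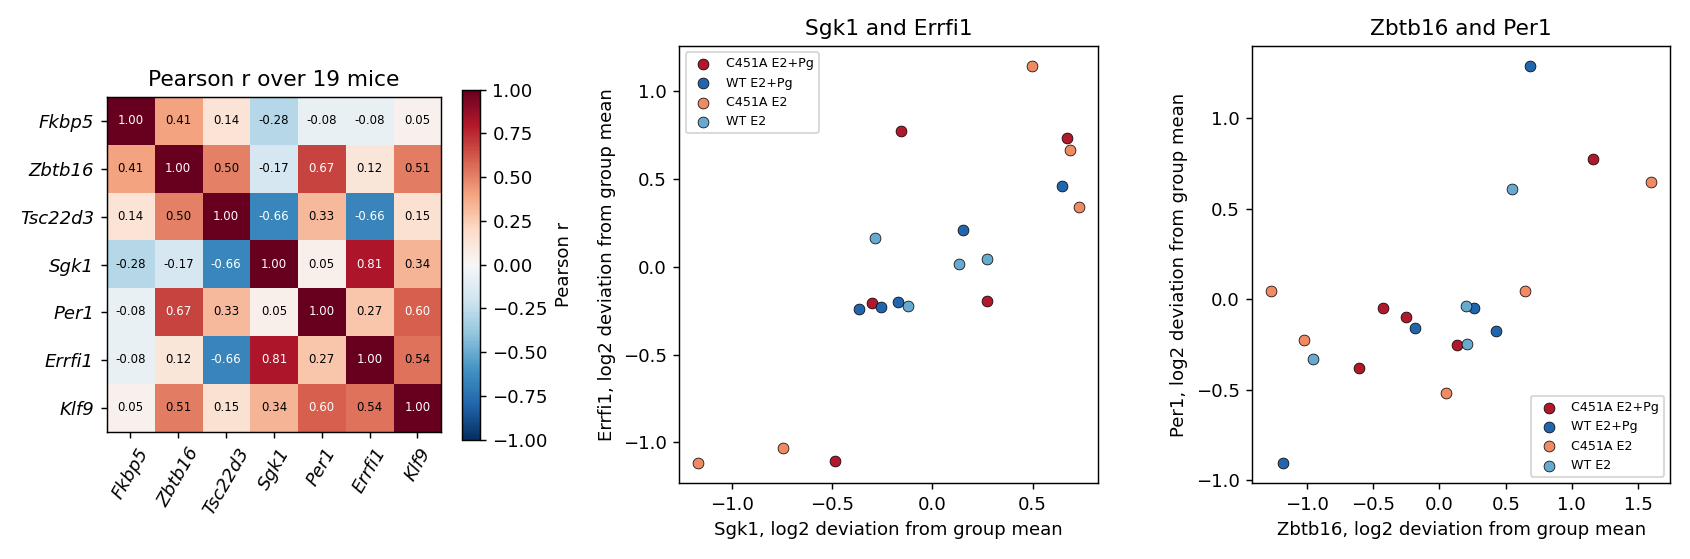
Pearson r between the 7 tested genes over the deviations of 19 mice from their group means (left), and the deviations of Errfi1 against Sgk1 (middle) and of Per1 against Zbtb16 (right) on the log2 scale, with 1 point for each mouse, coloured by group. The 3 mice at the lower left of the middle plot are L4, L27 and L18.

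Across the 19 mice, the genes most like each of the 7 by Pearson r of log2 signal, out of 20668 others with a value in every mouse, came from outside them, as a description that includes the differences between groups. For Fkbp5 they were Pwp1 (r = 0.909), Alg13 (0.895) and Exosc6 (0.885), and its closest relative among the 7 was Zbtb16 (0.324). For Zbtb16 they were Cacna2d2 (0.743), F730043M19Rik (0.631) and 4930532G15Rik (0.627). For Tsc22d3 they were Ccl19 (0.875), C230062I16Rik (0.857) and Rgs2 (0.853), for Klf9 Dusp1 (0.837), Atg7 (0.837) and Hyal1 (0.823), and for Per1 Zfp36l2 (0.908), Zfp612 (0.880) and 9830166K06Rik (0.878). For Sgk1 they were Zzef1 (0.947), AK029259 (0.927) and Prr18 (0.926), and for Errfi1 Rhbdf2 (0.969), Kdm6b (0.968) and Ier5 (0.963). All points of these correlations share the normalization and the arrays.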

How the data were processed

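Sorted LCs of 19 mice were profiled on 19 single-colour Agilent arrays that shared 5 slides. In the deposited scanner files each spot has a signal intensity from the authors' image software (Agilent Feature Extraction 10.10.1.1). A second deposited table gives log2 values, filtered by the authors, corrected for washing bath and serial labelling, and quantile-normalized. It served as an alternative. Labels gave genotype, treatment and mouse, and array identifiers gave the slide.

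Median signals were log2-transformed and quantile-normalized (limma 3.58.1, R 4.3.3), after removal of 1370 outlier spots. The 75th percentile of each array lay between 248.5 and 490, over backgrounds of 21 to 29, and precision is limited by the number of arrays. A probe needed signal well above background on 4 or more arrays, and genes were represented by their brightest such probe (20692 genes). Gene names came from the reference by accession (32994 probes) or matched probe (8376), otherwise from the files (15235), and all 17 probes of the 8 genes kept theirs.

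A limma model of 4 group means (15 residual degrees of freedom) gave 6 comparisons, adjusted by Benjamini-Hochberg over all genes. Exact permutation tests were added for single genes and permutation within groups for pairs. The limma fit and the permutation for pairs were tested on simulated data. The 8 genes and the lists were chosen with earlier results of these data known. Of each list, up to 6 called genes are named in order of p, and Pgr, Nr3c1 and Nr3c2 always, with the 3 genes most like each tested gene. Fkbp4, Foxa1, Ly6a, Prom1, Csn3, Cd24a and the marker genes of other cells were named after their values were seen. The treatment result of 1 clock gene is not reported here.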

Additional observations from a re-analysis of the deposited data

Results flagged for a closer look

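Of 28 sets of values, the 7 tested genes in 4 groups, 1 held a mouse far from the others by Dixon's criterion at the 95% level, and chance alone gives about 1 in 20. Per1 reached a log2 signal of 13.29 in the C451A-ERα mouse L63 with E2+Pg, against 12.46 in the next mouse of its group, a gap of 0.715 of the group's range (n = 5). The same mouse was the highest of its group in Zbtb16, Errfi1 and Klf9. Without L63 the difference in Per1 between C451A-ERα and wild-type under E2+Pg was 0.83 (adjusted p by limma 0.373), against 1.03 with it.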

How the results depend on the processing

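The 7 tested genes gave 42 values in 6 comparisons. Over 980 values under other settings or without single mice, 904 kept direction and call, 12 gained the call, 3 lost it and 61 turned in sign, the last in 16 of the 42, none with a main value above 0.45. The averaged rise of Fkbp5 was called in every one of these fits. No paired analysis by replicate number was possible because each mouse has its own number in the labels and no number is shared between groups, and slide, which mice of different groups shared, was fitted as a block instead. The fit without L4, L18 and L27 was added after the data were seen. The number of arrays limits all of these counts, and the cause of each change was not tested.

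For E2+Pg against E2 in wild-type, the count of the 7 genes called was 0, and 1 (Fkbp5) with normexp, with probes above background on all arrays, with array weights, with the authors' own values, with a fit restricted to the compared groups and without the 3 arrays, and 0 to 1 without single mice (1 without L21). In C451A-ERα it was 1, and 0 with only the compared groups (adjusted p by limma 0.0811) and without the 3 arrays, and 0 to 1 without single mice (0 without L61). For C451A-ERα against wild-type it was 0, and 1 (Per1) under E2 with array weights. Under E2+Pg it was 2 (Per1 and Errfi1) with array weights, 1 (Errfi1) without the 3 arrays and 0 to 1 (Per1, without L21) without single mice. Over all genes the calls moved far more. With E2+Pg they numbered 281 in wild-type, and 73 with slide as a fixed block and 1878 with array weights, and 511 in C451A-ERα, and 110 without the 3 arrays and 702 with array weights. Averaged they were 793, and 642 to 1594. Without single mice they were 28 (without L52) to 577 (without L72) in wild-type, 203 (without L61) to 967 (without L18) in C451A-ERα and 580 (without L52) to 913 (without L72) averaged. Between genotypes they were 6 under E2 and 1 under E2+Pg, and 2219 and 2590 with array weights, 133 and 26 with the authors' value table, 305 and 3002 without the 3 arrays, and 1033 under E2 without L72 and 1075 under E2+Pg without L18.

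The following log2 differences turned in sign. With array weights, Tsc22d3 was 0.2257 for E2+Pg in C451A-ERα, under E2 the genotype difference was -0.0403 for Fkbp5, -0.205 for Tsc22d3, 0.4234 for Sgk1 and 0.2881 for Errfi1, under E2+Pg it was -0.0063 for Fkbp5, and the interaction of Sgk1 was -0.0455. Without the 3 arrays, Tsc22d3 was 0.3079 for E2+Pg in C451A-ERα, the genotype difference under E2 was -0.2954 for Tsc22d3, 0.5138 for Sgk1 and 0.5642 for Errfi1, and the interaction of Sgk1 was -0.2364. The averaged change of Errfi1 was 0.1643 with processed signals, 0.0481 with the mean of probes, 0.0422 with slide as a fixed block and 0.0473 with the authors' value table. The genotype difference of Zbtb16 under E2 was 0.022 with normexp, 0.0022 with the mean of probes and 0.0095 with slide as a random block. With the mean of probes Errfi1 was 0.0829 under E2, and Zbtb16 was -0.0127 under E2+Pg and -0.0149 in the interaction.

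Without single mice, the change with E2+Pg in wild-type was -0.1745 to 0.4415 for Zbtb16 and -0.1922 to 0.3571 for Per1. In C451A-ERα it was -0.08 to 0.639 for Zbtb16, -0.4351 to 0.232 for Tsc22d3 and -0.4733 to 0.0017 for Sgk1, and averaged it was -0.1576 to 0.1253 for Errfi1. The genotype difference under E2 was -0.01 to 0.1766 for Fkbp5, -0.4108 to 0.3082 for Zbtb16, -0.3079 to 0.1672 for Sgk1 and -0.4386 to 0.1273 for Errfi1. Under E2+Pg it was -0.2133 to 0.2543 for Zbtb16 and -0.0127 to 0.3169 for Sgk1. The interaction was -0.225 to 0.494 for Zbtb16 and -0.0115 to 0.4636 for Sgk1.

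Of 43 calls of list genes none turned in sign, and 21 held under every setting and without each mouse. For Pgr, Glul, Mt2, Mfsd2a, Rspo1, Calca, Cry1, Foxa1 and Ly6a the averaged call held in all these fits. Each lost a call within a genotype in 1 or more fits, Glul in both genotypes. The call of Calca in C451A-ERα held under 5 of 10 settings and in 3 of the 10 fits without single mice. That of Mt2 in wild-type held in 2 of the 9 fits without single mice.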

Other observations

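Few markers of other cells, of luminal progenitors or of all luminal cells were called. Krt5, a basal keratin, fell by 2.29 on the log2 scale with E2+Pg averaged over genotypes (SE 0.49, adjusted p by limma 0.00740), and no other of the 9 basal and myoepithelial genes was called. Csn3, the milk protein κ-casein and a luminal progenitor marker, fell by 0.87 in wild-type (adjusted p by limma 0.0300). Cd24a, a pan-luminal marker whose product was used for the sort, fell by 0.73 in wild-type (adjusted p by limma 0.0469). These calls held under 7 and 4 of 11 alternative settings, and each in 2 of the 9 fits without single mice. Averaged over genotypes Csn3 fell by 0.63 and Cd24a by 0.62 (adjusted p by limma 0.00629 and 0.00430), calls that each held under 8 of 10 settings. Sbsn, a gene of the cornified epidermis, rose by 1.34 in C451A-ERα (adjusted p by limma 0.00326) and, uncalled, by 0.70 in wild-type (adjusted p 0.127). Averaged over genotypes Sbsn rose by 1.02 (adjusted p by limma 0.000679), and Vwf, the endothelial von Willebrand factor, by 0.98 (adjusted p 0.0146).

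None of 6 fibroblast, 6 immune or 3 adipocyte genes was called in any comparison by limma, and at most 1 gene of each list had an unadjusted p under 0.05 in a comparison of treatment or genotype. Adipoq and Plin1 were not above background on enough arrays to be tested. The part of these markers in the values of the 8 genes was not tested.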
